A study of Mus musculus with 34 samples.

Results

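The nuclear genes of oxidative phosphorylation were followed across 8 groups of mouse livers, complex by complex. Members were the array probes whose gene name begins with Nduf, Sdha, Sdhb, Sdhc, Sdhd, Uqcr, Cox4, Cox5, Cox6, Cox7, Cox8 or Atp5, which gave 136 probes of 92 genes among 55681 probes in all. A probe stayed in when, in 1 group or more, the scanner software called it well above background on each array, and 134 probes of 90 genes were kept, out of 15749 genes tested. Of the 90, 88 were above background on every one of the 34 arrays. Cox7b2 and Cox8c, the testis isoforms of subunits 7b and 8, were above background on 0 of 34 arrays and are not considered further. By role, 36 genes encode subunits of complex I, 4 of complex II, 8 of complex III, 11 of complex IV (Ndufa4 among them) and 15 of complex V, which makes 74 subunits. Another 7 encode assembly factors, 6 are tissue isoforms or Ndufa4l2, a paralog of Ndufa4, and 3 carry a matching name without being subunits of these complexes: Atp5s (now Dmac2l), Atp5sl (now Dmac2) and Cox4nb (now Emc8).

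Oxidative phosphorylation couples the oxidation of NADH and succinate to the making of ATP in the inner mitochondrial membrane. Complexes I and II pass electrons to ubiquinone, complex III passes them on to cytochrome c, and complex IV to oxygen. Complex V, the ATP synthase, uses the proton gradient that complexes I, III and IV build. Most subunits are encoded in the nucleus, and a small set is encoded by the mitochondrial genome. In liver the chain takes up the reducing equivalents of fatty acid oxidation, a pathway controlled by the nuclear receptor PPARA. Several subunits of complex IV exist as isoforms typical of muscle, lung or testis beside the form found in liver.

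The livers came from male C57Bl/6J mice of 14 weeks, 1 mouse per array, gavaged daily for 10 days and killed at zeitgeber time 14. Fenofibrate, a drug that activates PPARA, was given at 100 mg per kg per day, with gum arabic (3%) as vehicle. The 4 lines were wild-type (WT, 4 mice on vehicle and 4 on fenofibrate), a line without Ppara in the whole body (KO, 3 and 5), one lacking Ppara in liver (LKO, 4 and 5) and the liver wild-type control of the latter (LWT, 4 and 5). The Cre driver of the liver knockout and the deleted part of Ppara are not given in the sources used here. In LKO livers, cells other than those deleted can still express Ppara. Levels below are log2 intensities minus each array's 75th percentile, compared for 1 gene at a time. Changes are log2 differences ± SE from limma, "called" means an adjusted p under 0.05 over the 15749 genes, and group levels are means ± SD. In bulk liver, fewer cells of a type and less RNA per cell cannot be told apart.

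Ppara itself ran from 6.70 to 7.28 in the 17 WT and LWT livers, from 5.84 to 6.21 in the 9 LKO livers and from 5.03 to 6.06 in the 8 KO livers. All 12 hepatocyte markers were above background on every array. The share of probes well above background ran from 50.6% to 63.1% by array, none was saturated, and replicates of a group correlated across genes at 0.979 to 0.995. KO vehicle replicate 2 had a summed level of 11 Kupffer cell markers of 538, against 92.8 to 251 on the other 33 arrays. The 3 arrays of slide 1 (WT vehicle, KO vehicle and KO fenofibrate replicate 1) relate differently to the authors' deposited values than the other arrays do. Counts of members called are given below with and without these 3 arrays.

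The upstream sequences of 5 members are shown because their genes stand at the ends of the response described below or carry a motif of a factor known for respiratory genes. Each is the 250 bases before the RefSeq start of the gene on GRCm38.p6, written in the direction of transcription. Capitals in the last 3 mark the match described after them.
Cox6b2: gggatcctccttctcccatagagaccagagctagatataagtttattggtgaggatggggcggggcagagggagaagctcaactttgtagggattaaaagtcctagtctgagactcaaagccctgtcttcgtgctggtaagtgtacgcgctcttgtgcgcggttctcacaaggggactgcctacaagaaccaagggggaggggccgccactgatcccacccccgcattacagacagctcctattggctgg
Ndufab1: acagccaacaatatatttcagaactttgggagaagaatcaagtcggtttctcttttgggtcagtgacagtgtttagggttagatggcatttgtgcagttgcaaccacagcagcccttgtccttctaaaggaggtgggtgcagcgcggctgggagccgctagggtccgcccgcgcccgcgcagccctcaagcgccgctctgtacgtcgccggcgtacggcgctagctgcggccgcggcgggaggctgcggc
Atp5g3: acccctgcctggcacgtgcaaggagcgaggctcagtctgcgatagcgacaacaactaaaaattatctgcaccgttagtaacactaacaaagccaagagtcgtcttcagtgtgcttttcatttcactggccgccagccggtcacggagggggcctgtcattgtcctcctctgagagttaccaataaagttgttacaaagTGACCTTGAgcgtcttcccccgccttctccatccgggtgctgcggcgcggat
Atp5k: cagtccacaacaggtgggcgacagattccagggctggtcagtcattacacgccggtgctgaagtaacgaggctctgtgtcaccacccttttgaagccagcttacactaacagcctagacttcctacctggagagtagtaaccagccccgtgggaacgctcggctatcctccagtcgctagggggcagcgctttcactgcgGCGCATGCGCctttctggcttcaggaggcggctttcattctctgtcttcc
Cox6b1: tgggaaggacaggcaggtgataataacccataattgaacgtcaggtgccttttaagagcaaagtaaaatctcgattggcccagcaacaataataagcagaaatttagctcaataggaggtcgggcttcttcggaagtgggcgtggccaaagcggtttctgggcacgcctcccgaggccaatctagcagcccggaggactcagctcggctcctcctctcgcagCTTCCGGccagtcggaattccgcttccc
They lie at chr7:4753095-4753344, chr7:122101849-122102098, chr2:73911327-73911576, chr5:108434400-108434649 and chr7:30626115-30626364, all on the minus strand. RefSeq upstream sequences were matched for 75 of the 90 members, and motifs were searched on both strands of the 250 bases. The NRF1 motif, GCGCA and GCGC with any base between them, was found in 14 of the 75 members (18.7%) against 4.23% of 27025 genes, and Atp5k, subunit e of complex V, is an example. The ETS motif CCGGAAG, bound by GABPA among other factors, was also found in 14 members, against 7.83% of all genes. Cox6a1, Sdhd and Atp5h held both motifs. The estrogen-related receptor motif TNAAGGTCA was found in Atp5g3 and Ndufb4, 2 of 75 (2.67%) against 1.30% of all genes. Repeats of the PPAR type, AGGNCA followed after any base by AGGNCA, were found in 0 of the 75 members and in 0.400% of all genes, and the stricter form with AGGTCA in both places in 0 and 0.0407%. These are matches of letters in a short window. The median change with fenofibrate in LWT livers was 0.23 for the 14 members with the NRF1 motif and 0.26 for the other matched members.

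Across all 8 groups, 84 of the 90 members differed among groups by limma's moderated F test, against 60.8% of all genes tested; without slide 1 there were 87. All 36 subunits of complex I, 8 of 8 of complex III, 11 of 11 of complex IV and 15 of 15 of complex V were called, but 2 of 4 of complex II. The members not called were Sdhb and Sdhc of complex II, Cox6a2, Ndufaf3, Ndufaf4 and Cox4nb. To place each liver, the deviation of every subunit from its own mean over the 34 arrays was taken, and the median over a complex was used as a description. For complex I this deviation was 0.28 ± 0.09 (n = 5) in LWT fenofibrate livers and 0.17 ± 0.07 (n = 4) in WT fenofibrate livers. It was 0.01 ± 0.04 and 0.02 ± 0.04 (n = 4 each) in LWT and WT livers on vehicle. The LKO livers stood at -0.12 ± 0.04 (n = 4) on vehicle and -0.10 ± 0.06 (n = 5) on fenofibrate, and the KO livers at -0.22 ± 0.13 (n = 3) and -0.15 ± 0.12 (n = 5). By group mean, both lines with intact Ppara stood above both knockouts, and fenofibrate livers stood highest within the intact lines.

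**Figure D1:**
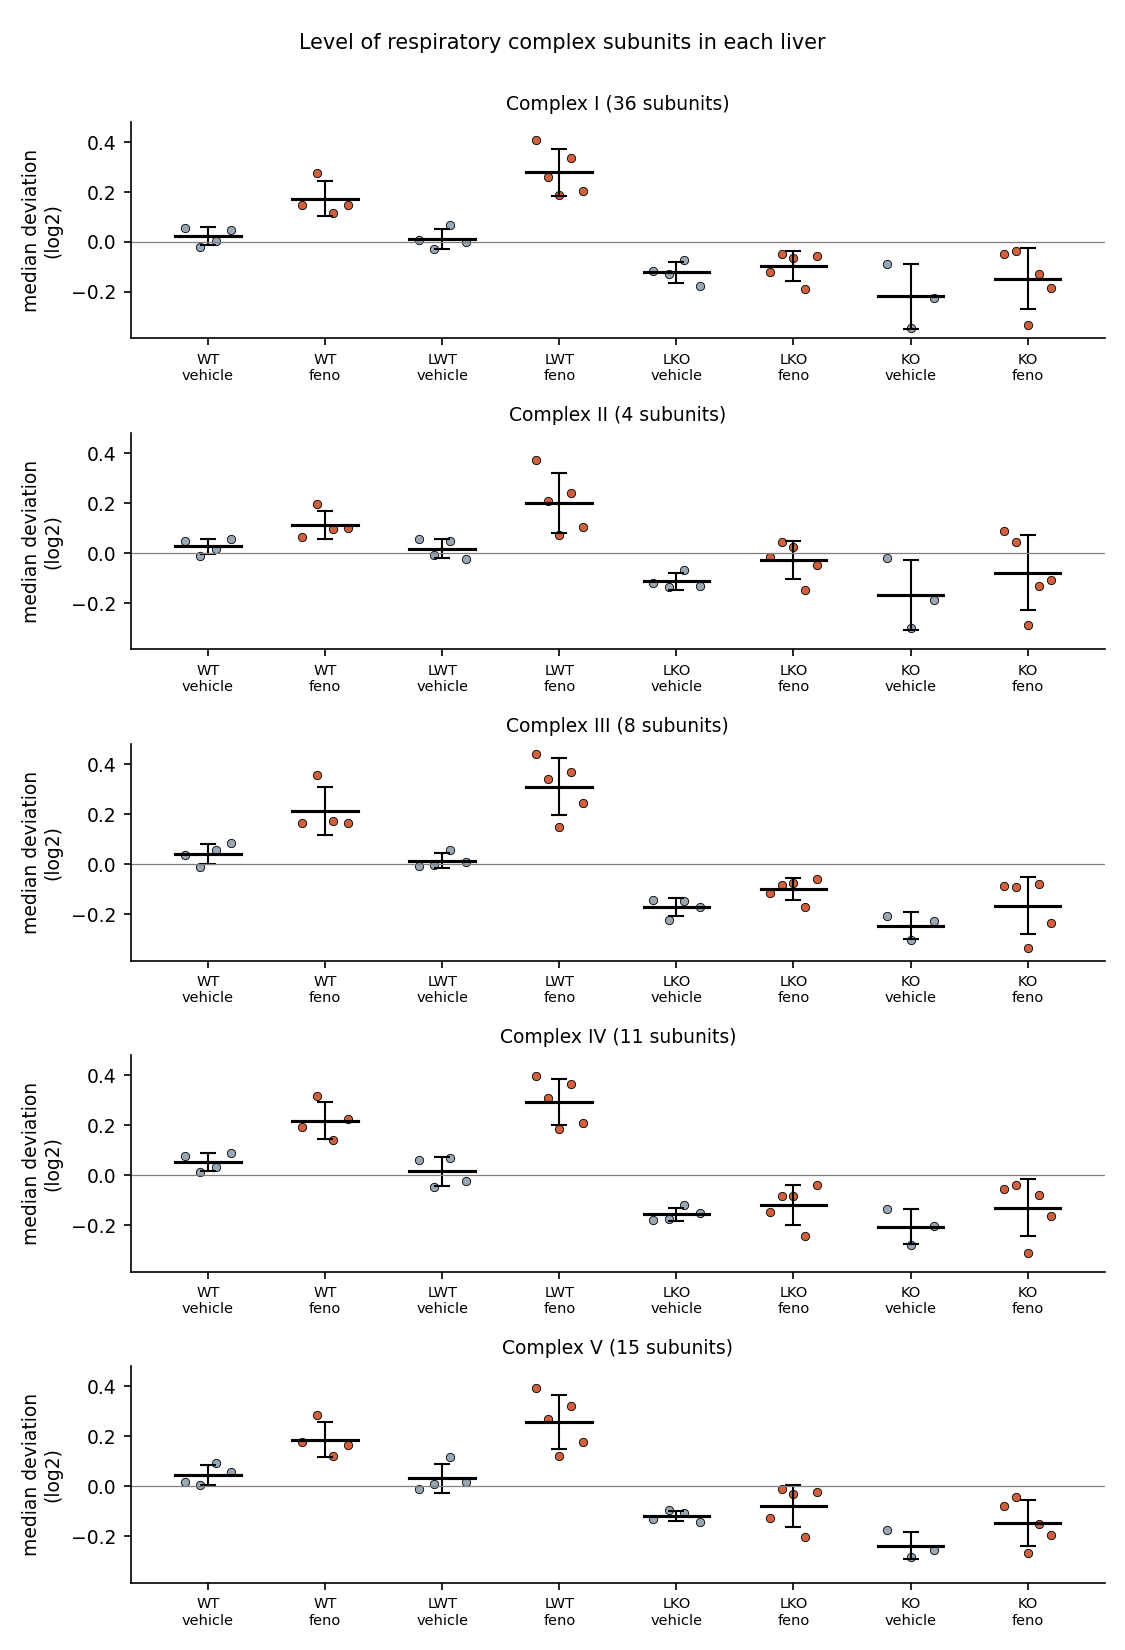
Median deviation (log2) of the subunits of each respiratory complex from their own mean over all arrays, 1 point per liver, with group means and SD; grey points are vehicle and orange points fenofibrate. For complexes I and III all 17 knockout livers lie below all 17 livers with intact Ppara, whereas complex II overlaps.

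Complexes III and V are given in the same way. Complex III ran from a mean of -0.25 ± 0.05 (n = 3) in KO vehicle livers to 0.31 ± 0.11 (n = 5) in LWT fenofibrate livers, and complex V from -0.24 ± 0.05 to 0.26 ± 0.11. In complexes I and III all 17 knockout livers fell below the lowest of the 17 livers with intact Ppara. In complex IV 15 of 17 did so, in complex V 16 and in complex II 11. Scaling by the median in place of the 75th percentile lowered the count for complex I to 10 and for complex III to 14, and with normexp and quantile normalization the counts were 16 and 17. Without slide 1, of 15 knockout livers 15 fell below every liver with intact Ppara in complexes I and III, 14 in complex IV, 13 in complex V and 12 in complex II.

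Subunits of several complexes rose with fenofibrate in both control lines. In WT livers 24 members rose and 3 fell, where 10.2% of all genes rose and 11.3% fell. In LWT livers 57 of 90 members rose and 0 fell, against 10.1% and 7.85% of all genes. The changes were small: the median member changed by 0.15 in WT (1.11-fold) and 0.25 in LWT (1.19-fold), while the median of all genes was near 0 in both (-0.0022 and 0.0044). Of the 24 members that rose in WT, 22 also rose in LWT, which is 91.7% of the WT list and 38.6% of the LWT list. Cox8b and Atp5a1 were the other two. In 41 members every WT fenofibrate liver was above every WT vehicle liver, against 12.7% of all genes, and in LWT this held for 51, against 10.8%. Counting both directions, the 27 calls in WT (21.5% of all genes) became 17 without WT fenofibrate replicate 2, 15 with median scaling and 15 in a fit of the WT arrays alone, and the 57 in LWT (18% of all genes) became 36 without LWT fenofibrate replicate 1. Without slide 1 the counts were 24 in WT (22 higher, 2 lower) and 63 in LWT (62 higher, 1 lower). With the replicate number as a block both counts were lower than any of these, as given in the last section. Of 12 hepatocyte markers 5 fell in WT and 3 in LWT and none rose. Their summed level ran from 9111 to 9985 in WT vehicle and from 8084 to 9505 in WT fenofibrate livers, and from 8838 to 11106 and 8371 to 10222 in LWT. Of 3 adipocyte markers tested, 1 rose in WT (Cfd, complement factor D, by 5.32) and 2 in LWT (Cfd by 2.91 and Adrb3, an adrenergic receptor, by 1.38). The summed level of the list of 6 ran from 1.35 to 2.06 in WT vehicle and from 5.59 to 17.1 in WT fenofibrate livers, and its median was 1.53 on vehicle and 6.34 on fenofibrate in LWT. Adipoq, which defines the adipocyte, was above background on 7 of 34 arrays. Cfd was above background on 21 of 34, so its changes include values near background. The filter asks for 1 full group only, so part of such a difference can be built into the choice. Of 3 red blood cell markers, Alas2, the erythroid enzyme of haem synthesis, fell in WT (-0.75) and LWT (-0.43), and the list's sum ran from 151 to 212 and 122 to 194 in WT, and from 154 to 305 and 205 to 294 in LWT. Of 10 lymphocyte and neutrophil markers, Nkg7 rose in both lines (0.62 and 0.67) and Ly6g fell in WT (-0.43). Of 8 endothelial markers, Pecam1 rose in LWT (0.30), and 0 of 11 Kupffer cell, 8 stellate and 6 cholangiocyte markers were called in either line by limma. These marker genes are named after their values were seen. The part of these lists in the result was not tested.

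By complex, in WT 8 of 36 subunits of complex I rose, 0 of 4 of complex II, 4 of 8 of complex III, 5 of 11 of complex IV and 3 of 15 of complex V. In LWT the counts were 27, 1, 7, 10 and 7. Over all genes 10.2% rose in WT and 10.1% in LWT, and complex II has only 4 members to set against these shares. No subunit of the 5 complexes fell in either line, and 69 of 74 in WT and 74 of 74 in LWT changed in the upward direction. The median change in LWT was 0.25 for complex I, 0.20 for complex II, 0.32 for complex III, 0.29 for complex IV and 0.22 for complex V. Differences between the complexes were not tested.

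**Figure D2:**
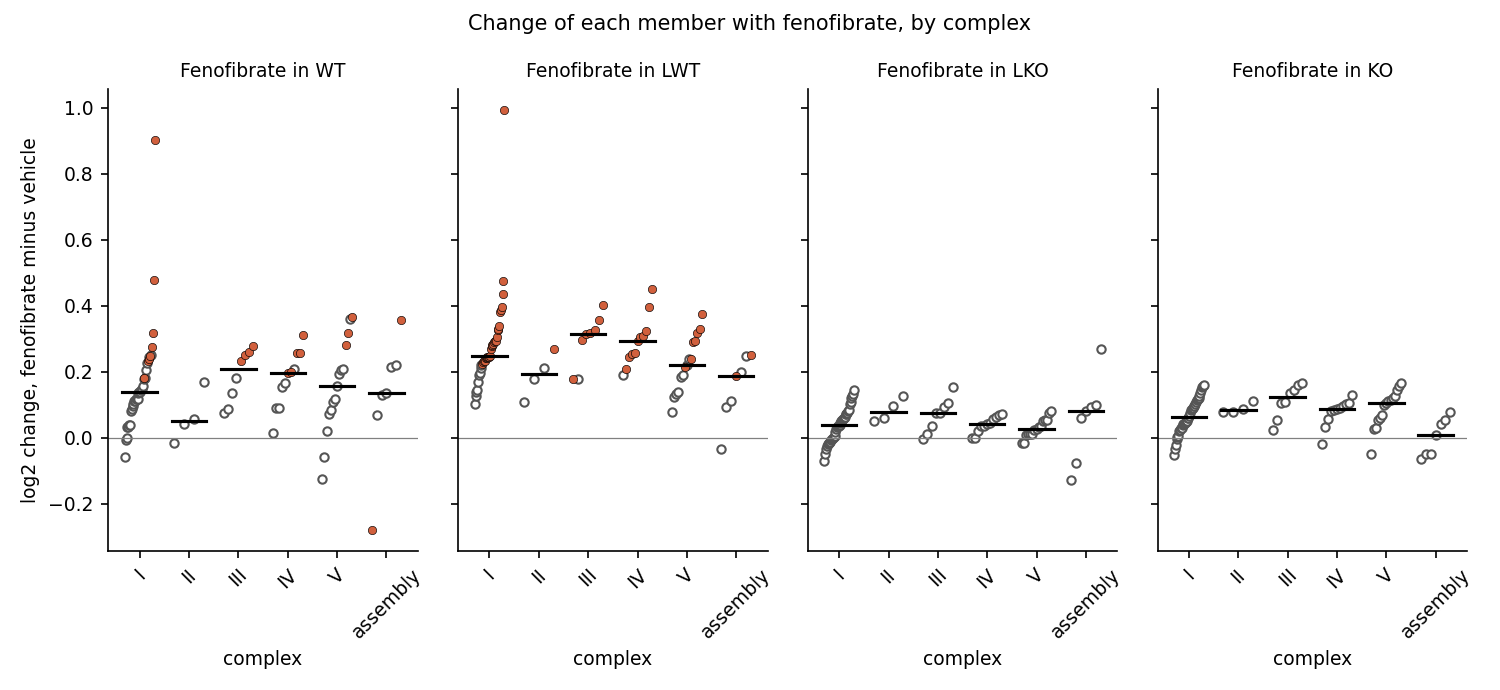
Log2 change with fenofibrate of every complex subunit and assembly factor in the 4 lines, 1 point per gene; orange points are called, open points are not, and bars are medians. Of the 74 subunits, 69 lie above 0 in WT and 74 in LWT, with Ndufab1 highest in complex I at 0.90 and 0.99, and in LKO and KO no point is called.

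Among the core proteins, Ndufs1, which carries iron-sulfur clusters of the NADH-oxidising arm of complex I, read 6.28, 6.19, 6.23 and 6.17 in LWT vehicle livers and 6.67, 6.46, 6.46, 6.48 and 6.45 on fenofibrate. The groups did not overlap, and the change was 0.29 ± 0.08 (adjusted p = 0.010); in WT it was 0.21 ± 0.08 and was not called (adjusted p = 0.074). Ndufv1, the flavin subunit that takes electrons from NADH, changed by 0.03 ± 0.07 in WT and 0.13 ± 0.07 in LWT and was called in neither. In complex II, Sdha, the flavin subunit that oxidises succinate, rose in LWT by 0.27 ± 0.06. Sdhb, its iron-sulfur partner, changed by -0.01 ± 0.07 and 0.11 ± 0.07 without a call.

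Uqcrfs1, the Rieske iron-sulfur protein of complex III, read 6.15, 6.19, 6.36 and 6.26 in WT vehicle livers and 6.54, 6.65, 6.49 and 6.39 on fenofibrate. It read 6.22, 6.27, 6.29 and 6.30 in LWT vehicle livers and 6.70, 6.59, 6.41, 6.65 and 6.65 on fenofibrate. In both lines every fenofibrate liver was above every vehicle liver, with changes of 0.28 ± 0.07 and 0.33 ± 0.07 (adjusted p = 0.0061 and 0.0011). Uqcrc1, a core protein of the same complex, rose in LWT by 0.30 ± 0.07 and changed by 0.13 ± 0.08 in WT.

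In complex IV, Cox5b rose in both lines, by 0.26 ± 0.07 in WT and 0.31 ± 0.07 in LWT. Cox4i1, the common form of subunit 4, read 8.71, 8.57, 8.59 and 8.64 in WT vehicle livers and 8.59, 8.74, 8.54 and 8.69 on fenofibrate, which overlap. In LWT it read 8.46, 8.55, 8.51 and 8.52 against 8.85, 8.64, 8.73, 8.89 and 8.67, and rose by 0.25 ± 0.07 (adjusted p = 0.019). That call was lost without LWT vehicle replicate 1 (adjusted p = 0.0524), LWT fenofibrate replicate 1 (0.0531) or LWT fenofibrate replicate 4 (0.0582).

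In complex V, Atp5g3, one of the genes for the membrane ring subunit c, rose by 0.37 ± 0.09 in WT and 0.33 ± 0.08 in LWT (adjusted p = 0.0028 and 0.0055). Atp5g1, another gene for the same ring protein, changed by -0.12 ± 0.08 and 0.13 ± 0.08 and was not called. The catalytic subunit Atp5b read 8.54, 8.43, 8.55 and 8.55 on vehicle and 8.64, 8.73, 8.66 and 8.66 on fenofibrate in WT livers. These groups did not overlap, but the change of 0.16 ± 0.07 was not called (adjusted p = 0.13), nor was that of 0.19 ± 0.07 in LWT (adjusted p = 0.057). Atp5a1, the alpha subunit that stands beside it in the head of the enzyme, rose in WT by 0.28 ± 0.07 and changed in LWT by 0.19 ± 0.07 (adjusted p = 0.052). Called members of complex V in WT numbered 3 of 15, with Atp5f1 (now Atp5pb), of the peripheral stalk, as the third, named after its values were seen.

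In neither knockout was any member called after fenofibrate: 0 of 90 in LKO, where 0% of all genes were called, and 0 of 90 in KO, where 0.0127% (2 genes) were. Without slide 1 limma also called 0 in each. At an unadjusted limma p under 0.05 there were 2 members and 919 of all genes in LKO, and 5 members and 1863 of all genes in KO. The median member changed by 0.04 in LKO and 0.08 in KO, against 0.02 and -0.0062 over all genes. In KO 79 of 90 members changed in the upward direction; median scaling moved the median of members to -0.01 there and that of all genes to -0.10. In LKO 67 of 90 did, and the highest complex subunit there was at 0.15. Each of the other settings run also gave 0 called members in both knockouts.

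The response itself was then compared between lines. The change in LWT exceeded that in LKO for 10 members and fell short for 0, against 3.8% and 2.99% of all genes. The change in WT exceeded that in KO for 3 members and fell short for 0, against 5.66% and 5.41% of all genes, a share of members no higher than the background. Cox6b2, Ndufab1 and Atp5s were called in both. The other 7 in the liver line were Cox6b1, Ndufb11, Ndufs5, Uqcr11, Ndufc1, Uqcrfs1 and Ndufs4, with differences of 0.43 down to 0.24; all but Cox6b1 and Uqcrfs1 fall outside the naming rule and are named after their values were seen. The call of Uqcrfs1 (0.31 ± 0.10, adjusted p = 0.047) was lost under 27 of 45 alternatives. The difference between the lines had a positive sign for 84 of 90 members in LWT against LKO (median 0.21) and for 67 of 90 in WT against KO (median 0.08). The 10 calls became 25 with normexp and quantile normalization, 4 with median scaling and 15 without the arrays of slide 1. They ranged from 5 to 14 when single arrays were left out, with 5 or 6 when any of the 4 LWT vehicle, the LKO vehicle replicates 1 to 3, LWT fenofibrate replicates 1, 2 or 4, or LKO fenofibrate replicates 1, 2 or 4 was left out. The 3 calls of WT against KO became 5 without the arrays of slide 1 (4 larger, 1 smaller in WT) and 6 without KO fenofibrate replicate 1. Between the 2 control lines, 0 of 90 members differed in response (0% of all genes), with 6 members and 674 of all genes at an unadjusted limma p under 0.05; without slide 1 the count was also 0.

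The member that moved farthest was Cox6b2, the testis isoform of subunit 6b of complex IV. Its probe lies at chr7:4703488-4703547 on mm9, minus strand, by the annotation in the files. The first 30 of the 60 bases of this probe and of the Cox6b1 probe are given because the genes are paralogs.
Cox6b2 probe: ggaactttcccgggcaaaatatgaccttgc
Cox6b1 probe: aggagtcaggatggctgaagacatcaagac
The longest run shared by the whole probes is 6 bases, and the best alignment without gaps has 21 matches over 49 bases. The Cox6b1 probe covers 60 transcript bases spread over chr7:31409575-31411071 on mm9, minus strand, and so crosses at least 1 intron.

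Cox6b2 read -0.98, -0.82, -0.81 and -0.38 in WT vehicle livers and 2.53, 3.00, 1.38 and 2.06 in WT fenofibrate livers. In LWT it read -1.12, -0.74, -0.84 and -0.77 on vehicle and 2.39, 1.41, 3.06, 2.41 and 2.39 on fenofibrate. All 9 fenofibrate livers of the control lines were above all 8 of their vehicle livers, and the rises were 2.99 ± 0.25 in WT (7.95-fold, adjusted p = 6.5e-10) and 3.20 ± 0.24 in LWT (9.19-fold, adjusted p = 6.6e-11). In LKO it read -1.53, -1.01, -1.19 and -1.36 on vehicle and -1.50, -1.56, -1.49, -1.20 and -1.33 on fenofibrate. In KO it read -1.45, -1.19 and -1.12 on vehicle and -0.88, -1.31, -1.34, -1.18 and -1.22 on fenofibrate. The knockout groups overlapped between treatments, with changes of -0.14 ± 0.24 in LKO and 0.07 ± 0.26 in KO. The response differed by 3.34 ± 0.34 between LWT and LKO (adjusted p = 1.7e-07) and by 2.92 ± 0.36 between WT and KO (adjusted p = 2.7e-06). The gene was above background on all 34 arrays. Across all settings run, its change in WT lay between 2.52 and 3.28 and in LWT between 2.70 and 3.43, always called.

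**Figure D3:**
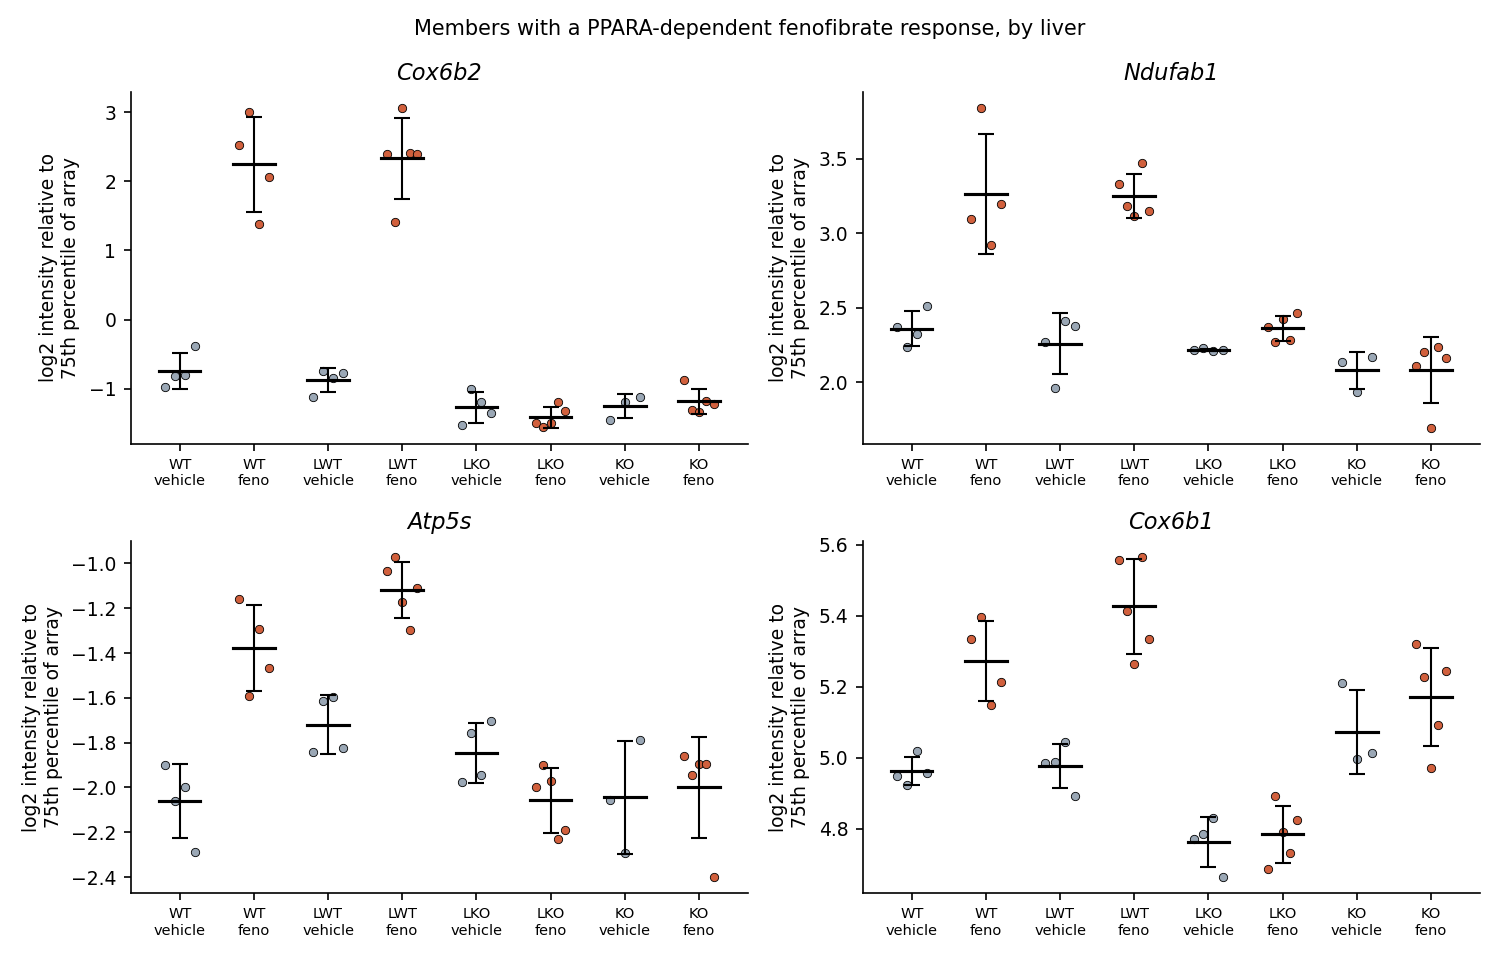
Level of Cox6b2, Ndufab1, Atp5s and Cox6b1 in each liver (log2 intensity minus the array's 75th percentile), with group means and SD; grey points are vehicle and orange points fenofibrate. In WT and LWT the fenofibrate livers lie above the vehicle livers for all 4 genes, while in KO the groups overlap for all 4 and in LKO for all but Ndufab1.

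Ndufab1, the mitochondrial acyl carrier protein and an accessory subunit of complex I, had the widest response of any complex subunit. It lies at chr7:129231667-129231726 on mm9 by its probe. In WT it read 2.37, 2.23, 2.32 and 2.51 on vehicle and 3.09, 3.84, 2.92 and 3.20 on fenofibrate, and in LWT 2.27, 1.96, 2.41 and 2.38 against 3.33, 3.18, 3.12, 3.47 and 3.15. Neither pair of groups overlapped, and the rises were 0.90 ± 0.14 (1.87-fold, adjusted p = 1.4e-05) and 0.99 ± 0.13 (1.99-fold, adjusted p = 1.6e-06). In LKO it read 2.22, 2.23, 2.21 and 2.22 on vehicle and 2.37, 2.27, 2.43, 2.29 and 2.46 on fenofibrate, which do not overlap although the change of 0.15 ± 0.13 was not called. In KO it read 2.14, 1.94 and 2.17 on vehicle and 2.11, 2.20, 1.70, 2.24 and 2.16 on fenofibrate, a change of 0.00 ± 0.14. The differences in response were 0.85 ± 0.18 in the liver line and 0.90 ± 0.20 in the whole-body line (adjusted p = 0.0033 and 0.0025).

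Atp5s (Dmac2l), named after ATP synthase but no structural subunit of it, read -1.90, -2.06, -2.00 and -2.29 in WT vehicle livers and -1.16, -1.59, -1.29 and -1.47 on fenofibrate. In LWT it read -1.84, -1.62, -1.60 and -1.83 against -1.04, -0.97, -1.17, -1.30 and -1.11. The rises were 0.69 ± 0.12 and 0.60 ± 0.12 without overlap, and 0.37 in both lines with normexp and quantile normalization. In LKO the levels ran from -1.98 to -1.70 on vehicle and from -2.23 to -1.90 on fenofibrate, and in KO from -2.29 to -1.79 and from -2.40 to -1.86, all overlapping. The response differed by 0.81 ± 0.16 between LWT and LKO (adjusted p = 0.0017). Between WT and KO it differed by 0.64 ± 0.18 (adjusted p = 0.017), a call lost without KO vehicle replicate 3 (adjusted p = 0.070).

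Cox6b1, the common isoform of subunit 6b, moved with Cox6b2 in direction but not in size. In LWT it read 4.98, 4.99, 5.04 and 4.89 on vehicle and 5.56, 5.41, 5.26, 5.56 and 5.33 on fenofibrate, a rise of 0.45 ± 0.07 (1.37-fold). In WT it read 4.95, 4.92, 5.02 and 4.96 against 5.33, 5.40, 5.15 and 5.21, a rise of 0.31 ± 0.08. In LKO the groups overlapped, from 4.66 to 4.83 on vehicle and from 4.68 to 4.89 on fenofibrate, and the response differed by 0.43 ± 0.11 from that in LWT (adjusted p = 0.010). In KO it ran from 5.00 to 5.21 on vehicle and from 4.97 to 5.32 on fenofibrate. Among the called subunits of the 5 complexes, leaving out tissue isoforms and assembly factors, the rise next in size to that of Ndufab1 was that of Ndufb3 in WT (0.48 ± 0.11), an accessory subunit of the membrane arm of complex I, and that of Ndufa10 in LWT (0.47 ± 0.09), an accessory subunit of the same complex.

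Members were lower in the knockouts already on vehicle. In KO livers 45 of 90 members were lower and 1 higher than in WT, where 16.1% of all genes were lower and 14% higher. The median member differed by -0.24, against -0.03 for all genes. In LKO livers 6 of 90 members were lower and 0 higher than in LWT, against 4.31% and 1.86% of all genes. This share of called members is near the background. The median member differed there by -0.15, against -0.0076 for all genes. The 6 were Ndufb3, Sdhd, Cox7b, Uqcr11, Uqcr10 and Ndufs4, the last 3 named after their values were seen, and all but Ndufb3 were also lower in KO. A lower sign was seen in 86 of 90 members in LKO and 81 of 90 in KO. In 44 members every LKO liver was below every LWT liver, against 7.98% of all genes, and in 51 every KO liver was below every WT liver, against 15%.

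These vehicle calls depended on the fit. With the replicate number as a block on the groups compared, 2 members remained called in KO against WT, Cox7a1 and Ndufa6, and 1 in LKO against LWT, Ndufb3. With the block over all 15 vehicle arrays the counts were 40 and 4. A fit of the KO and WT vehicle groups alone gave 7, and median scaling 27. Without KO vehicle replicate 2, the liver with the high Kupffer cell markers, the count was 31, and without the arrays of slide 1 it was 52, all lower. For LKO the count fell to 2 without LWT vehicle replicate 3 and to 3 without LWT vehicle replicates 1 or 4 or LKO vehicle replicates 1, 2 or 4. It was 13 with slide as a block and 9 without slide 1 (8 lower, 1 higher). The KO count covers both directions, 46 in the fit as reported, against 30.1% of all genes. In the same comparison of KO with WT, 6 of 11 Kupffer cell markers and 3 of 12 hepatocyte markers were higher and 0 of either list lower. The summed level of the Kupffer cell list ran from 119 to 172 in WT and from 143 to 538 in KO. Of 10 lymphocyte and neutrophil markers 3 were higher in KO (S100a8 by 3.62, S100a9 by 3.64 and Ptprc by 0.71) and 3 lower (Cd3g by -1.36, Cd79a by -0.72 and Ms4a1 by -1.97), with a median sum of 15.4 in WT and 27.7 in KO. Of 8 endothelial markers Stab2 (0.78) and Pecam1 (0.39) were higher and Kdr (-0.38) and Clec4g (1.99-fold) lower. Lrat of 8 stellate markers (-0.88) and Epcam of 6 cholangiocyte markers (-1.17) were lower, and limma called 0 of 3 red blood cell and 0 of 3 adipocyte markers. In LKO against LWT, Adrb3 (1.87) was higher and Cfd (-3.12, above background on 21 of 34 arrays) lower among adipocyte markers. In that comparison 0 hepatocyte, Kupffer cell, endothelial, stellate, lymphocyte and neutrophil, cholangiocyte or red blood cell markers were called. The single marker genes are named after their values were seen. The part of these lists in the result was not tested.

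On fenofibrate more members were called. In LKO against LWT 76 of 90 members were lower and 1 higher, where 18.4% of all genes were lower and 18.3% higher, and the median member differed by -0.36. In KO against WT 71 were lower and 3 higher, against 22.1% and 21.2%, with a median of -0.32. All 5 complexes were involved. In LKO 36 of 36 subunits of complex I, 2 of 4 of complex II, 8 of 8 of complex III, 11 of 11 of complex IV and 13 of 15 of complex V were lower. In KO the counts were 30, 2, 8, 9 and 13. The median was -0.44 for complex III and -0.37 for complex I in LKO. The 2 lists of lower members share 67 genes, 88.2% of the LKO list and 94.4% of the KO list. In both directions together, 77 members were called in LKO (36.7% of all genes) and 74 in KO (43.3%). The LKO count stayed between 73 and 80 and the KO count between 62 and 74 when single arrays were left out. Without slide 1 they were 80 (79 lower, 1 higher) and 73 (71 lower, 2 higher). In the same comparisons 3 of 12 hepatocyte markers were higher in LKO and 6 in KO, and 0 lower. The hepatocyte sum ran from 8084 to 9505 in WT and from 9973 to 10441 in KO livers on fenofibrate. Of 3 red blood cell markers Alas2 was higher in LKO (0.74), and Hba-a1 (1.69) and Alas2 (1.42) in KO, where the list's sum ran from 337 to 640, against 122 to 194 in WT. The adipocyte marker Cfd, above background on 21 of 34 arrays, was lower in both (-6.39 in LKO and -5.92 in KO). Of 10 lymphocyte and neutrophil markers 2 were lower in LKO, and 2 higher and 4 lower in KO. Of 8 stellate markers Col1a1 was lower in both (-1.24 and -1.18) and Col3a1 in KO (-1.32). Of 6 cholangiocyte markers 4 were lower in KO and 0 were called in LKO. Of 8 endothelial markers Pecam1 was lower in LKO (-0.28) and Stab2 higher in KO (1.00), and of 11 Kupffer cell markers 1 was higher in KO, Timd4 (0.94). The single marker genes are named after their values were seen, and the part of these lists in the result was not tested.

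**Figure D4:**
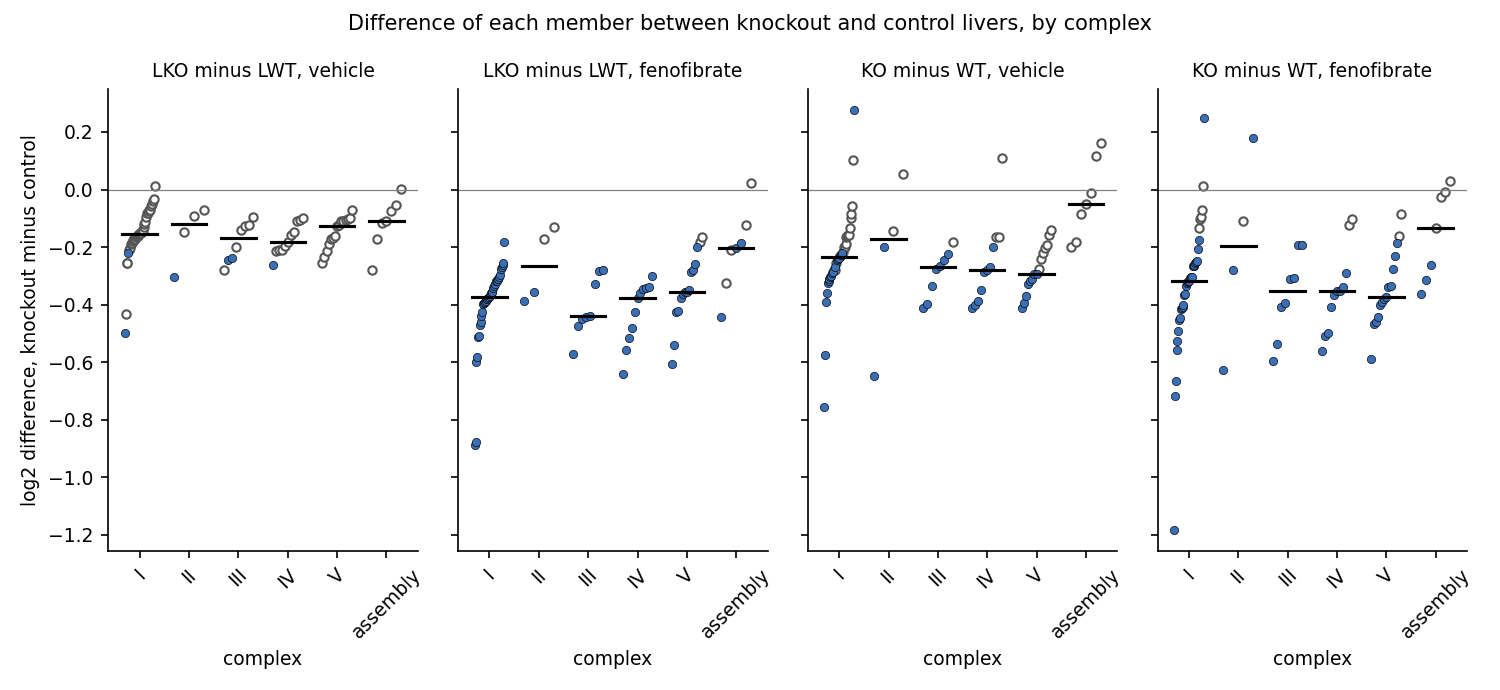
Log2 difference between knockout and control livers for every complex subunit and assembly factor, 1 point per gene; blue points are called, open points are not, and bars are medians. On fenofibrate every subunit lies below 0 in LKO, and Ndufb8 and Sdhb are the called points above 0 in KO.

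Among the core genes, Ndufs1 read 6.04, 5.96, 5.92 and 5.93 in LKO vehicle livers and 6.06, 6.12, 6.10, 5.96 and 6.09 on fenofibrate, all below every LWT liver. On fenofibrate its difference was -0.44 ± 0.07 in LKO and -0.32 ± 0.08 in KO, that of Uqcrfs1 was -0.44 ± 0.06 and -0.39 ± 0.07, and that of Cox5a, a matrix-side subunit of complex IV, -0.34 ± 0.06 and -0.35 ± 0.07. The difference of Atp5a1 was -0.36 ± 0.06 and -0.46 ± 0.07, and that of Atp5b -0.28 ± 0.07 and -0.18 ± 0.07. The Atp5b call in KO (adjusted p = 0.033) was lost without KO fenofibrate replicate 3 (0.116) or 5 (0.0505), or without WT fenofibrate replicate 2 (0.0921), 3 (0.0509) or 4 (0.0535). Ndufv1, Cox4i1 and Cox6b1 were lower in LKO and not called in KO. Differences between the knockouts were not tested.

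Several members differed between lines on both treatments. Cox7a1 is the isoform of subunit 7a typical of heart, muscle and brown fat, and its probe spans chr7:30970337-30970948 on mm9. It read 2.42, 2.58, 2.41 and 2.51 in WT vehicle livers and 2.23, 2.65, 2.50 and 2.67 on fenofibrate, a change of 0.03 ± 0.21 that was not called. In KO it read 1.08, 0.45 and 1.37 on vehicle and 1.41, 1.41, 0.50, 1.15 and 1.01 on fenofibrate. All 8 KO livers were below all 8 WT livers, and the difference was -1.51 ± 0.23 on vehicle and -1.41 ± 0.20 on fenofibrate (adjusted p = 9.4e-06 and 1.1e-06). With the replicate block the vehicle difference had an adjusted p of 0.036. In LWT it read 1.82, 1.56, 1.13 and 1.49 on vehicle, below every WT liver, and 2.18, 1.94, 2.55, 2.27 and 2.46 on fenofibrate. It rose there by 0.78 ± 0.20 (adjusted p = 0.0061), and in LKO it ran from 0.89 to 1.56 on vehicle and from 1.39 to 2.27 on fenofibrate. Its change in LKO was 0.42 ± 0.20 and was not called. Between LWT and LKO its response differed by 0.36 ± 0.28 (limma adjusted p = 0.55), without a call. Between WT and LWT its response differed by -0.75 ± 0.29 (limma adjusted p = 0.98), also without a call. The difference between the control lines on vehicle was -0.98 ± 0.21 (adjusted p = 0.015), a call lost without LWT vehicle replicate 3 (0.10), without WT vehicle replicate 2 (0.059) or with the replicate block (0.073).

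Of the markers of tissues where Cox7a1 and Cox8b are typical, 2 of 10 skeletal muscle, 5 of 7 heart and 4 of 7 brown fat genes passed the filter. Ucp1, which defines brown fat, was above background on 1 of 34 arrays, Actc1 of heart on 0 and Myl1 of skeletal muscle on 0. The summed level of the skeletal muscle list ran from 1.25 to 1.47 in WT vehicle and from 1.22 to 1.34 in KO vehicle livers, and that of the heart list from 0.70 to 0.72 and from 0.54 to 0.81. The brown fat list includes Elovl3 and the PPARA target Cpt1b. Its sum ran from 8.51 to 44.9 in WT vehicle, from 36.9 to 102 in WT fenofibrate and from 1.89 to 12.3 in KO vehicle livers. In KO fenofibrate livers it ran from 5.84 to 24.1, in LWT livers from 33.8 to 79.4 on vehicle and from 43.6 to 109 on fenofibrate, and in LKO livers from 20.1 to 43.7 and from 14.7 to 63.3. The highest of all 34 arrays for the brown fat list was LWT fenofibrate replicate 4. For the heart list it was WT fenofibrate replicate 2 (1.21, with the next at 0.93). The same liver was highest for the skeletal muscle list (1.543, with the next at 1.536). Within the brown fat list, Cidea and Cpt1b rose in both control lines. The rises were 3.81 and 2.03 in WT and 1.83 and 1.75 in LWT. Cidea was above background on 19 of 34 arrays, so its changes include values near background. Since the filter asks for 1 full group only, part of its differences can be built into the choice. Elovl3 and Zic1 were not called with fenofibrate in either line. Elovl3 changed by 1.47 in WT and 0.11 in LWT. The median sum of the brown fat list was 22.5 on vehicle and 55.7 on fenofibrate in WT, and 58.2 and 52.6 in LWT. The part of single genes in this sum was not tested. Against WT on vehicle, Elovl3 was lower in KO (-2.19 ± 0.64, limma adjusted p = 0.011). There Cidea (0.62), Cpt1b (-0.23) and Zic1 (-0.05) were not called. On fenofibrate Cidea (-3.97), Elovl3 (-2.61) and Cpt1b (-2.40) were lower in KO, and Zic1 was not called. Of the heart genes, Myh6 fell with fenofibrate in WT (-0.73). On fenofibrate Myh6 was higher in KO (1.26) and LKO (0.60), and Nppa was lower in both (-0.48 and -0.36). Tnni2 of skeletal muscle was lower in KO on fenofibrate (-0.46). Single genes of these lists are named after their values were seen. The part of these lists in the isoforms' levels was not tested.

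Ndufa6, an accessory subunit of complex I that binds the acyl carrier protein, is encoded on chromosome 15, with its probe at chr15:82181444-82181503 on mm9. It read 6.71, 6.55, 6.62 and 6.58 in WT vehicle livers and 5.99, 5.73 and 5.86 in KO vehicle livers, and 6.54, 6.60, 6.63 and 6.66 against 5.96, 6.02, 5.76, 5.81 and 5.89 on fenofibrate. The groups were far apart, with differences of -0.76 ± 0.08 and -0.72 ± 0.07 (adjusted p = 5.9e-08 and 3.2e-09; 0.037 on vehicle with the replicate block). LWT vehicle livers read 6.19, 6.08, 6.25 and 6.12, below every WT liver, a difference of -0.45 ± 0.08 (adjusted p = 0.0017; 0.10 with the replicate block). LKO vehicle livers read 6.27, 6.20, 6.24 and 5.97 and did not differ from them by more than the spread (0.01 ± 0.08). Cox7a1 and Ndufa6 were the 2 members called between the control lines on vehicle, both lower in LWT, against 0.914% of all genes called and 0.438% called lower. With the replicate block 0 were called, and over all vehicle arrays 1; without LWT vehicle replicate 3 or WT vehicle replicate 2 the count was 1, and without slide 1 it was 2.

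**Figure D5:**
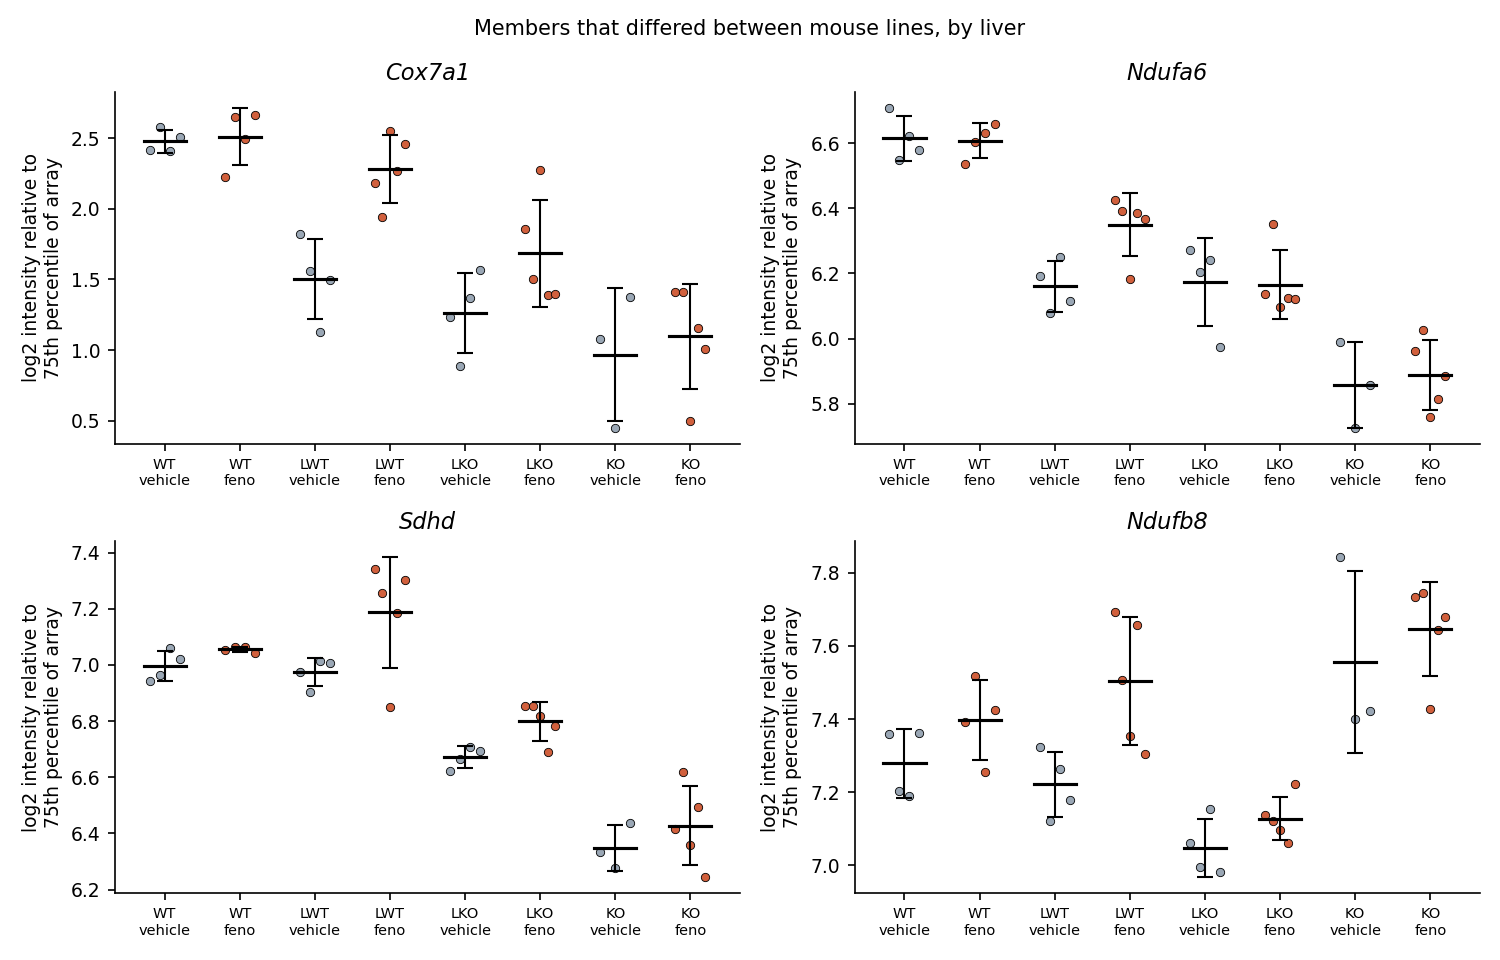
Level of Cox7a1, Ndufa6, Sdhd and Ndufb8 in each liver (log2 intensity minus the array's 75th percentile), with group means and SD; grey points are vehicle and orange points fenofibrate. KO livers lie below WT livers for the first 3 genes, and Ndufb8 has a higher mean in KO than in WT.

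Sdhd, which anchors complex II in the membrane, read 6.94, 6.96, 7.06 and 7.02 in WT vehicle livers and 6.33, 6.28 and 6.44 in KO vehicle livers, a difference of -0.65 ± 0.09 (adjusted p = 1.6e-06; 0.053 with the replicate block). On fenofibrate the difference was -0.63 ± 0.08. In LKO it read 6.62, 6.66, 6.71 and 6.70 against 6.97, 6.90, 7.02 and 7.01 in LWT on vehicle, a difference of -0.30 ± 0.08 without overlap (adjusted p = 0.018). That call was lost without LKO vehicle replicate 1 (0.056) or LWT vehicle replicate 3 (0.060) or 4 (0.056), and with the replicate block (0.071). Cox7b, another subunit of complex IV, was lower in LKO on vehicle by a call lost without LWT vehicle replicate 3 (0.0855), LKO vehicle replicate 2 (0.0563) or 4 (0.0616), and with the replicate block (0.0947). Ndufb3 was the widest of the LKO differences on vehicle. It read 5.73, 5.48, 5.37 and 5.42 against 5.99, 6.10, 5.98 and 5.92, a difference of -0.50 ± 0.11 (adjusted p = 0.0025; 0.047 with the replicate block), and on fenofibrate -0.88 ± 0.10.

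A few members ran the other way. Ndufb8, an accessory subunit of the membrane arm of complex I, read 7.36, 7.20, 7.19 and 7.36 in WT vehicle livers and 7.84, 7.40 and 7.42 in KO vehicle livers. It was higher in KO by 0.28 ± 0.10 on vehicle and 0.25 ± 0.09 on fenofibrate (adjusted p = 0.041 and 0.027), while in LKO it was lower on fenofibrate (-0.38 ± 0.08). The vehicle call was lost without KO vehicle replicate 1 (adjusted p = 0.347), WT vehicle replicate 2 (0.0956) or 3 (0.105), or with the replicate block (0.232), and the fenofibrate call without KO fenofibrate replicate 1 (0.059) or 2 (0.061) or WT fenofibrate replicate 1 (0.051) or 3 (0.11). Sdhb was higher in KO on fenofibrate by 0.18 ± 0.07 (adjusted p = 0.042), a call lost under 15 of 45 alternatives. Those include leaving out KO fenofibrate replicate 1 (0.092), 2 (0.13) or 4 (0.054) or WT fenofibrate replicate 1 (0.086), 3 (0.11) or 4 (0.082).

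Ndufa4l2, the paralog of Ndufa4 known as a hypoxia-inducible gene, was the one member higher in LKO than in LWT on fenofibrate. It read -0.73, -0.71, -0.63, -0.80 and -0.30 in LWT fenofibrate livers and 0.33, 0.30, 0.22, 0.39 and 0.19 in LKO fenofibrate livers, without overlap, a difference of 0.92 ± 0.21 (adjusted p = 0.00089). In KO against WT on fenofibrate it was higher by 0.69 ± 0.22 (adjusted p = 0.013; 0.057 without WT fenofibrate replicate 2). It read 0.70, 0.15, -0.18 and -0.26 in WT vehicle livers and -0.47, -0.87, -0.56 and -0.28 on fenofibrate, a change of -0.65 ± 0.24 whose call (adjusted p = 0.048) was lost under 30 of 45 alternatives. Ndufa4 itself, counted with complex IV, rose in LWT by 0.29 ± 0.07 and was lower in LKO on fenofibrate, with a difference of -0.34 ± 0.06.

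Among the other tissue isoforms, Cox8b was near background. It read -4.69, -5.18, -4.92 and -4.64 in WT vehicle livers, with 1 of 4 arrays above background, and -2.94, -3.58, -3.76 and -3.72 on fenofibrate, with 4 of 4. It passed the filter through that group, so that a difference was built into the choice. The fitted rise was 1.36 ± 0.33 (adjusted p = 0.0032) and 0.30 with normexp and quantile normalization. In LWT 3 of 4 vehicle and 4 of 5 fenofibrate arrays had it above background, and it changed by 0.35 ± 0.31. Cox6a2, the muscle isoform of subunit 6a, was called in no comparison, with changes of 0.37 ± 0.36 in WT and -0.28 ± 0.34 in LWT. Cox4i2, the lung-type isoform of subunit 4, read 0.25, 0.03, 0.11 and 0.21 in WT vehicle livers and -0.32, -0.43 and -0.25 in KO vehicle livers. That difference was -0.48 ± 0.08 (adjusted p = 7.3e-05, and 0.103 with the replicate block). The change of Cox4i2 with fenofibrate was 0.00 ± 0.08 in WT. In KO it was 0.31 ± 0.08 without overlap between the groups, and was not called (limma adjusted p = 0.20). Of the partners typical of liver, Cox6a1 and Cox8a rose in LWT by 0.25 ± 0.08 and 0.26 ± 0.08. Both calls were lost without LWT vehicle replicate 1 (adjusted p = 0.062 and 0.053) or LWT fenofibrate replicate 1 (0.051 and 0.057), and that of Cox6a1 without LWT fenofibrate replicate 4 (0.052). Cox7a2 changed in LWT by 0.19 ± 0.07 without a call.

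Of the 7 assembly factors, 1 rose and 1 fell in WT and 2 rose in LWT, with median changes of 0.14 and 0.19. Over all genes 10.2% rose and 11.3% fell in WT, and 10.1% rose in LWT, so the WT shares are near the background. A difference from the subunits was not tested. On fenofibrate 3 of 7 were lower in each knockout, with medians of -0.20 in LKO and -0.13 in KO, where 18.4% and 22.1% of all genes were lower. The fall in WT was Sdhaf1, which helps mature the iron-sulfur subunit of complex II, with -0.28 ± 0.10 (adjusted p = 0.046), lost under 25 of 45 alternatives. Atp5sl (Dmac2) fell in WT, with a change of -0.36 ± 0.11 (adjusted p = 0.021). That call was lost without WT vehicle replicate 2 (0.066) or 3 (0.062) or WT fenofibrate replicate 1 (0.080) or 2 (0.069).

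The rest of the pathway was followed with lists of genes that the name rule does not take. Their counts are to be read against all genes tested, of which 10.2% rose and 11.3% fell in WT and 10.1% and 7.85% in LWT. Of the 13 genes of the mitochondrial genome, limma called 0 with fenofibrate in each line. At an unadjusted p under 0.05 there were 0 in WT, 1 in LWT, 0 in LKO and 3 in KO. Their medians were 0.01 in WT and -0.02 in LWT, where the median nuclear member stood at 0.15 and 0.25. In KO against WT on vehicle 6 of 13 were lower, with differences over the list from -0.61 to -0.10, and in LKO against LWT on fenofibrate 5 were lower, against 16.1% and 18.4% of all genes. Of 20 tested genes of electron carriers and other entries to the chain, 11 rose and 1 fell in WT, and 13 and 1 in LWT. Gpd2, the mitochondrial glycerol phosphate dehydrogenase, rose by 1.46 in WT, Etfdh, which passes electrons from fatty acid oxidation to ubiquinone, by 0.97, and Coq4 of ubiquinone synthesis by 0.95. The fall was that of Prodh, proline dehydrogenase, by 0.40 and 0.59. Cycs, somatic cytochrome c, rose by 0.47 in WT and 0.40 in LWT; both were named after their values were seen.

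Of 17 citric acid cycle and pyruvate dehydrogenase genes, 9 rose in WT and 11 in LWT and 0 fell, with medians of 0.28 and 0.35. Suclg2, a subunit of succinyl-CoA ligase, rose by 0.42 and 0.58. On fenofibrate 13 of 17 were lower in LKO and 12 in KO, against 18.4% and 22.1% of all genes. Of 7 uncoupling proteins and nucleotide carriers, 4 rose and 1 fell in WT and 3 rose and 1 fell in LWT. In WT Ucp2 rose by 1.89 and Ucp3 by 1.97, and Slc25a14 fell (-0.90). On vehicle Ucp2 and Ucp3 were also higher in KO than in WT, by 1.11 and 1.18. Of 21 regulators of respiratory genes, 2 rose and 1 fell in WT and 2 rose in LWT, shares no higher than those of all genes. Tfb2m, a mitochondrial transcription factor, rose in both lines (0.39 and 0.29), Esrrg rose in WT (1.24), and Tfam rose in LWT (0.31). Nrf1 changed by -0.02 and -0.04 and Gabpa by 0.09 and 0.03, neither called; they are named because their motifs were searched. Of 22 assembly factors of complex IV, 5 rose in WT and 7 in LWT, with Sco2, a copper chaperone, at 1.27 and 0.73. Among assembly factors of complex III, Uqcc1 (0.31) and Uqcc3 (0.32) rose in LWT, and none was called in WT. The complex V list, Atpaf2, Tmem70, Fmc1 and Oxa1l, had no call with fenofibrate in either line. Known targets of PPARA moved farther: 9 of 10 rose in each control line, with medians of 1.58 and 1.40, and 0 of 10 in either knockout (at an unadjusted limma p under 0.05, 0 in LKO and 1 in KO).

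Second probes and slides bear on these values. In 30 members more than 1 probe passed, and of 153 pairs of a called value and a second probe, 149 had the same sign and 103 were called as well. The 4 opposite signs belonged to Ndufb11 and Ndufb5, and none of those second probes was called. Cox6b2, Ndufab1, Atp5s, Cox7a1 and Ndufa6 had 1 probe each. Within slides that hold both groups, the change of Cox6b2 with fenofibrate was 3.11 in WT on slide 3, and 3.85 and 3.25 in LWT on slides 2 and 3. All 27 called WT members and all 57 called LWT members kept their sign within each of these slides, whose arrays also entered the calls. The KO difference on vehicle could be read within slide 1 alone, from 1 liver of each group, where the 46 called members kept their sign.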

How the data were processed

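RNA of 34 mouse livers was hybridised to one-colour Agilent arrays of 60-base probes placed on mm9. The scanner files hold an intensity per spot that the authors obtained with Agilent Feature Extraction 10.10.1.1, background-subtracted, per the file headers. A deposited table of log2 values, normalized between arrays by the authors, was used as an alternative only; limma is named in the submitters' processing notes. The series text speaks of more samples than the 34 arrays used here.

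From the processed intensity, 5381 spot values marked as outliers were left out, spots of a probe averaged, log2 taken and the array's 75th percentile subtracted. Probes (31037 of 55681) were kept when, in 1 group or more, each array had them well above background. Names came from RefSeq (GRCm38.p6) by accession for 27235 probes, by symbol for 3581 and by synonym for 565, while 1146 kept the file's name and 23154 had none. A gene is its brightest passing probe. One limma model (limma 3.58.1, R 4.3.3) over the 8 groups gave all differences, with Benjamini-Hochberg adjustment over 15749 genes and a threshold of 0.05, and was tested on simulated data. The simulated noise was independent between arrays and genes. It therefore does not bear on calls affected by livers that share a slide or replicate number. The number of arrays limits the precision.

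Members and lists were chosen with earlier results of these data known. Named members were core subunits, isoforms with their partners, the 6 largest called rises and falls with fenofibrate in WT and in LWT, the 3 largest in the other comparisons, and any called in opposite directions in WT and LWT. Other lists gave up to 4 genes called in WT or LWT. Not every gene these rules name is reported here.

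Replicate numbers are shared between groups. Deviations from the group means correlated between livers of the same number at 0.120 to 0.288 (LKO and LWT), 0.120 to 0.402 (KO and WT) and 0.105 to 0.241 (LWT and WT) on vehicle. The fit as reported has no block, so its vehicle calls are unpaired. The replicate block was run as an alternative, and its counts are given beside them. Several such pairs share a slide, and number and slide cannot be told apart. Other comparisons had pairs under 0.1. Alternatives were other scalings (median, normexp with offset 50 and quantile), the deposited log2 table, other filters, all probes, slide as a block, the replicate block, only the groups compared, and leaving out each array. The block over all vehicle arrays and the fit without slide 1 were added after seeing the data.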

Additional observations from a re-analysis of the deposited data

Results flagged for a closer look

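In 12 of 161 groups of 4 or 5 livers examined, for members described liver by liver in the report and for the median deviation of each complex, 1 liver stood far from the others by Dixon's test; chance gives about 1 in 20. Ndufab1 was at 1.70 in KO fenofibrate replicate 3, where the others lay between 2.11 and 2.24. Atp5s was at -2.40 in KO fenofibrate replicate 5, against -1.94 to -1.86. Ndufa6 was at 6.18 in LWT fenofibrate replicate 3, against 6.37 to 6.43, and at 6.35 in LKO fenofibrate replicate 2, against 6.10 to 6.14. Ndufs1 was at 6.67 in LWT fenofibrate replicate 1, against 6.45 to 6.48. In WT vehicle replicate 2, Atp5b was at 8.43, against 8.54 to 8.55, and Sdhb at 7.66, against 7.78 to 7.79. Among the isoforms, Cox8b was at -5.54 in LWT fenofibrate replicate 5, against -3.84 to -3.27. Cox6a2 was at -2.76 in LWT vehicle replicate 3, against -2.47 to -2.46, and at -3.37 in LKO fenofibrate replicate 5, against -2.65 to -2.38. Cox4i2 was at 0.28 in LKO vehicle replicate 3, where the others were at 0.18. The median deviation of complex III was 0.36 in WT fenofibrate replicate 2, against 0.16 to 0.17.

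The change with fenofibrate was larger in LWT than in LKO by limma's test of the difference for 10 members. The differences (log2 ± SE, adjusted p over all genes) were 3.34 ± 0.34 for Cox6b2 (1.7e-07), 0.85 ± 0.18 for Ndufab1 (0.0033), 0.81 ± 0.16 for Atp5s (0.0017) and 0.43 ± 0.11 for Cox6b1 (0.010). They were 0.37 ± 0.11 for Ndufb11 (0.043), 0.34 ± 0.10 for Ndufs5 (0.043), 0.33 ± 0.10 for Uqcr11 (0.043) and 0.32 ± 0.09 for Ndufc1 (0.018). Uqcrfs1 (0.31 ± 0.10, 0.047) and Ndufs4 (0.24 ± 0.08, 0.049) were closest to the threshold. The change was larger in WT than in KO for Cox6b2 (2.92 ± 0.36, 2.7e-06), Ndufab1 (0.90 ± 0.20, 0.0025) and Atp5s (0.64 ± 0.18, 0.017).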

How the results depend on the processing

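No called value of a named member and no count reversed under the alternatives run, but the median change of members with fenofibrate in KO turned from 0.08 to -0.01 with median scaling, and that between the control lines on vehicle, near 0, changed sign under several settings. Counts of called members in WT with fenofibrate (27) became 15 with median scaling, 15 in a fit of only the groups compared and 4 with the replicate block, and those in LWT (57) became 13 with the block. On vehicle, LKO against LWT (6) gave 2 with normexp and quantile normalization, 2 with median scaling, 3 in the deposited log2 table, 13 with slide as a block and 1 with the replicate block (4 over all vehicle arrays). KO against WT (46) gave 27 with median scaling, 7 with only the groups compared and 2 with the replicate block (40 over all vehicle arrays). LWT against WT (2) gave 1 with only the groups compared, and 0 and 1 with the block in its 2 forms. On fenofibrate, KO against WT (74) gave 38 with the replicate block. The response of LWT against LKO (10) gave 5 with all probes, 25 with normexp and quantile normalization, 4 with median scaling, 20 in the deposited table and 5 with no background filter. That of WT against KO (3) gave 9 with normexp and quantile normalization, 8 in the deposited table and 5 without slide 1. Where the numbers do not pair the samples, calls lost with the block say nothing of the size of an effect. The cause of these moves was not tested.

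Leaving out 1 array at a time gave 17 to 29 in WT and 36 to 63 in LWT with fenofibrate, 0 to 0 in LKO and KO, 2 to 8 (LKO) and 31 to 56 (KO) on vehicle, and 73 to 80 and 62 to 74 on fenofibrate. It gave 1 to 2 between the control lines, 5 to 14 and 2 to 6 for the responses of LWT against LKO and WT against KO, 0 to 0 for that of WT against LWT, and 82 to 88 over the 8 groups. Of the called values of named members, 199 were lost and 4085 kept when an array was left out, and 187 were lost and 1221 kept under other settings. No scaling moved the median of all genes by more than 0.0916. Array number and brightness limit what is seen: Cox8b lay near background.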
